A study of Mus musculus with 167 samples.

Results

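The genes described here are the variable (V) segments of the mouse antibody heavy chain (Ighv) and kappa light chain (Igkv) whose estimated counts, summed over all tumours of the study, reached 1000. Among the genes counted, 81 of 185 Ighv and 73 of 160 Igkv genes qualified, and they held 98.7% of all Ighv and Igkv counts. The genes nearest the limit were Igkv1-132 (1017 counts) and Ighv7-4 (1023 counts) inside it and Igkv18-36 (947 counts) and Ighv1-63 (936 counts) outside it. The data were RNA-seq counts of 167 mesotheliomas of 119 mice from 35 crosses. Each cross paired males of a Collaborative Cross (CC) strain, inbred lines that mix the genomes of several founder strains, with MexTAg females, whose transgene drives the large T antigen of SV40, a viral oncogene, from the mesothelin promoter, that is in mesothelial cells. All offspring received 2 intraperitoneal doses of 3 mg Wittenoom crocidolite asbestos 1 month apart, and their treatment label is otherwise "No treatment". Mice are labelled as above median survival (83 mice) or below it (36 mice, with 52 of the tumours). There were 84 mice with 1 tumour and 35 with several, up to 6. No mouse without asbestos or without the transgene, and no tumour-free tissue, was analysed here, and no label used here gives the ages of the mice. Mice are named below by strain and animal code, such as CC044-J3 for an animal of the CC044 cross.

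A B cell assembles its antibody by joining 1 V segment to short D and J segments in the heavy chain and to a J segment in the light chain, and all its descendants keep that choice. The constant region joined behind the heavy V segment (Ighm for IgM, Ighg for IgG subclasses, Igha for IgA) can be exchanged later by class switching, while the V segment stays. In a tissue with many unrelated B and plasma cells the reads spread over many V genes. Where 1 clone contributes most antibody RNA, a single heavy and a single light V gene lead. B-1 cells, a B cell type common in the peritoneal and pleural cavities, are known for recurrent use of a few V genes, among them Ighv11-2 with Igkv14-126 and Ighv12-3 with Igkv4-91. In whole tumours, fewer cells of a type and less RNA per cell cannot be told apart.

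The 8 V genes below led the 4 heavy and kappa pairs on which the results turn: Ighv6-6 with Igkv6-15 and Ighv1-7 with Igkv4-59 gave the most one-sided usage, Ighv12-3 with Igkv4-91 is a B-1 pair, and Ighv1-76 with Igkv1-117 led the tumours of CC053-F1. They are shown to make plain how alike V genes are, since reads of near-identical genes can be assigned to the wrong one. Each is the sense strand of the germline V exon in GRCm38, 5′ to 3′, up to its end, where it joins the next segment (its last 294 to 300 bases), with positions from the GENCODE vM21 annotation, and capitals mark the bases that differ from the most similar other V gene among those that qualified. The Ighv genes lie on chromosome 12, minus strand, and read Ighv6-6 at chr12:114434788-114435087, Ighv1-7 at chr12:114538495-114538794, Ighv12-3 at chr12:114366521-114366820 and Ighv1-76 at chr12:115847881-115848174. The Igkv genes lie on chromosome 6 on either strand, Igkv6-15 at chr6:70406469-70406766, Igkv4-59 at chr6:69438218-69438517 and Igkv4-91 at chr6:68768555-68768854 on the minus strand and Igkv1-117 at chr6:68121528-68121827 on the plus strand.
Ighv6-6: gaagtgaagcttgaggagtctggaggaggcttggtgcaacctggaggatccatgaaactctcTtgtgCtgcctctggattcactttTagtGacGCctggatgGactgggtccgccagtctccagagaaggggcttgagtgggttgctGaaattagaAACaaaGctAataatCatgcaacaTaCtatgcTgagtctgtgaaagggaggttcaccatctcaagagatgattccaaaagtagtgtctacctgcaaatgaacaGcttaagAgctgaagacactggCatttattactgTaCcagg
Igkv6-15: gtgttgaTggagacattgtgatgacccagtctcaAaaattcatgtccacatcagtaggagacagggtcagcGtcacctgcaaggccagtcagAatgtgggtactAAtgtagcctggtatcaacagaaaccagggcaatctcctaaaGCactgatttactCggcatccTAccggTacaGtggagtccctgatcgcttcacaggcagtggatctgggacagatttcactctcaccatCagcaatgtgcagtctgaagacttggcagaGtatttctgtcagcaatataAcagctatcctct
Ighv1-7: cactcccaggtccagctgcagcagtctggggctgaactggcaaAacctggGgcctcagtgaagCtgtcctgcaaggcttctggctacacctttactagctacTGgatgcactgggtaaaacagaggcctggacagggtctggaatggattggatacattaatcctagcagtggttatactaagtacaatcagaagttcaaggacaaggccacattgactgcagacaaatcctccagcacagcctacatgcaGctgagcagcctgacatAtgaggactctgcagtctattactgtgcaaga
Igkv4-59: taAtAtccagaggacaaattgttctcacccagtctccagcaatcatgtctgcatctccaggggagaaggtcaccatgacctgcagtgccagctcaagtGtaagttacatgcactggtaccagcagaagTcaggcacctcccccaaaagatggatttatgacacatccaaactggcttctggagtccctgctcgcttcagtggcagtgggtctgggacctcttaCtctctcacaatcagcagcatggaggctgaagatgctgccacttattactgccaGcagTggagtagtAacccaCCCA
Ighv12-3: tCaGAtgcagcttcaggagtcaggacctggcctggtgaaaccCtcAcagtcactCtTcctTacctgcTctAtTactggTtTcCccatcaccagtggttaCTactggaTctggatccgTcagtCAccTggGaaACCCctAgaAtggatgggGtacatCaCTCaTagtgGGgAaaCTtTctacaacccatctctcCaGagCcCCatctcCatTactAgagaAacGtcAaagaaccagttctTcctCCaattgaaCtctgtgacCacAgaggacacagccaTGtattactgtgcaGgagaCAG
Igkv4-91: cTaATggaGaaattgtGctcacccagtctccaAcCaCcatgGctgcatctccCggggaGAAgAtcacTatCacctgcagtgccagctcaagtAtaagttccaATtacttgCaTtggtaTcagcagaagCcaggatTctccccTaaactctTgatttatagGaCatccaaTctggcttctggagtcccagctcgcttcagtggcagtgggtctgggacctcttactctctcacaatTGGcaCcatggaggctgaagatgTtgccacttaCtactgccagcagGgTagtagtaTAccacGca
Ighv1-76: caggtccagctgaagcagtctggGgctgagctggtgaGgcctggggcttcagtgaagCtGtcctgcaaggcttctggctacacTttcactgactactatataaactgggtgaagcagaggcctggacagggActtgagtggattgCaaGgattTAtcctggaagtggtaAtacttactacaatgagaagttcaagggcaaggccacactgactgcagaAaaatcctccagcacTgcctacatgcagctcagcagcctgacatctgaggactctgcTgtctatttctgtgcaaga
Igkv1-117: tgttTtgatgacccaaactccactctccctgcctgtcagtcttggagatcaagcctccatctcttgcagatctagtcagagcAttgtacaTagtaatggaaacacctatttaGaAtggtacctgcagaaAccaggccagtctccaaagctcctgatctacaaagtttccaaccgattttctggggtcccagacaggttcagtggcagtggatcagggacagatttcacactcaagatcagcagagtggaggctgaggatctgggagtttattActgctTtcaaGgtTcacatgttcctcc

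Ighv12-3 was 79% identical to its nearest relative (Ighv3-2, 63 different bases), and 97.8% of its 31-base words occurred in no other Ighv or Igkv gene of the annotation. Ighv6-6 (22 bases from Ighv6-3), Igkv6-15 (16 from Igkv6-23), Igkv4-91 (40 from Igkv4-73) and Ighv1-76 (14 from Ighv1-77) were intermediate. Ighv1-7 differed from Ighv1-4 by 7 bases, Igkv1-117 from Igkv1-110 by 10, and Igkv4-59 from Igkv4-70 by 12, with only 13% of the words of Igkv4-59 its own. Over the 81 Ighv genes the median identity to the nearest other was 95%, and over the 73 Igkv genes 94%. Values of single V genes with such relatives are therefore uncertain. Antibody genes also mutate in activated B cells, while counting was against the germline of GRCm38. Differences of V genes between the founder strains of the crosses could likewise change these values, which was not tested.

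Tumours had 11138491 to 35399287 counts in all genes (median 22539831). Usage was computed only where a chain had at least 500 V counts, which 54 tumours missed for the heavy chain and 40 for kappa, leaving 82 and 94 mice. V reads were a minority of the antibody reads: summed V levels were 17% (median, 3.48% to 31.4%) of the summed heavy constant region levels and 38.2% (10.6% to 92.7%) of Igkc. Some properties of the libraries bear on the values below. By low counts of genes of other tissues, or by the number that ends each title, 6 sets of libraries were told apart, here called library sets, which are not batches named by the labels. In 22 libraries B cell marker levels were far above the rest. Another 5 libraries, of which MEE-A3 tumour 1 is also 1 of the 22, resembled another strain more than their own in the genes that differ most between strains, and results are given with and without them where they matter.

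Evenness was measured as the effective number of V genes, the inverse Simpson index, which equals the number of genes that would give the same index at equal shares. For the heavy chain it ran from 1.11 in LAX-K2 to 46.2 in CC081-C5, with a median of 11.4 and quartiles of 3.89 and 25. For kappa it ran from 1.31 in LAX-K2 to 35.6 in Piping-N1, with a median of 9.71 and quartiles of 3.58 and 20.6. The most used gene held a median of 21.7% of heavy and 23.9% of kappa counts. It held more than 50% in 25 tumours of 17 mice for the heavy chain and in 33 tumours of 21 mice for kappa. In all, 37 different Ighv and 28 different Igkv genes were the most used gene of some tumour. Evenness of both chains went together: over 82 mice the log2 effective numbers had Pearson's r = 0.947 and Spearman's rho = 0.939 (permutation p = 1e-05 for each, the smallest that 100000 permutations can give, adjusted p = 5.0e-05 over 15 tests). Without the 2 mice farthest from the median heavy value r was 0.942.

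**Figure D1:**
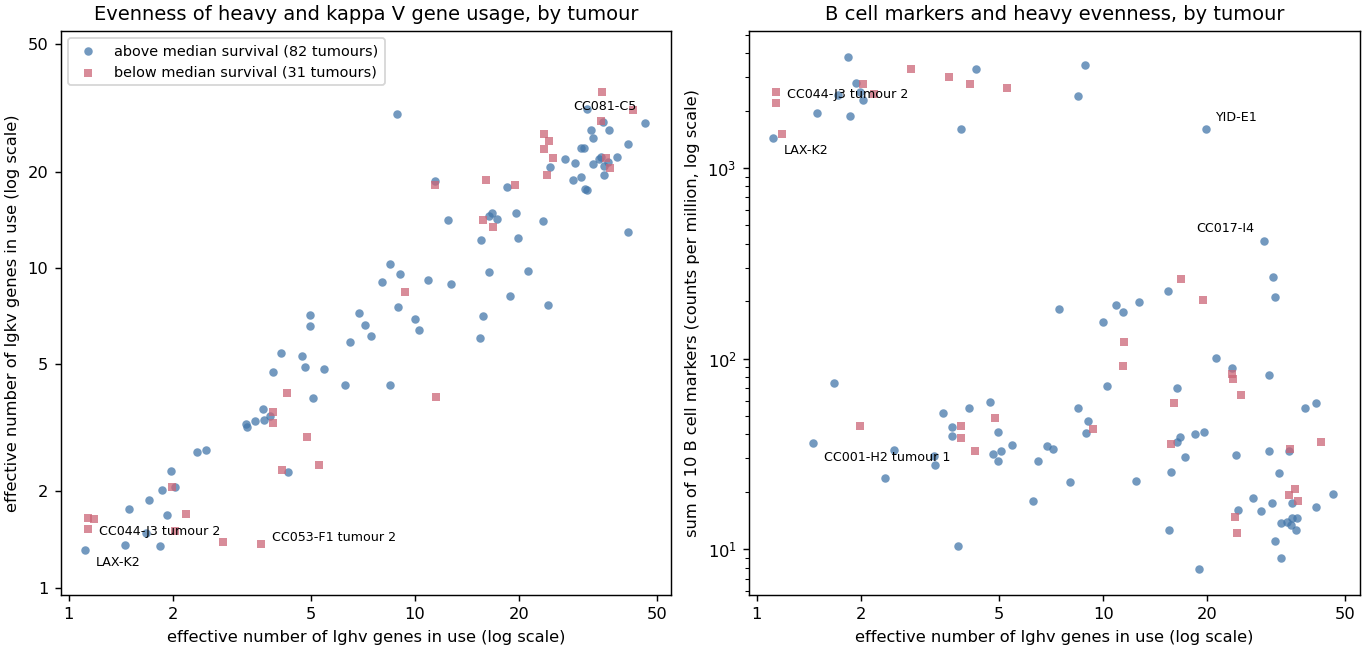
The left panel plots each tumour with at least 500 counts of both chains by its effective number of Ighv genes (x) and of Igkv genes (y), and the right panel the same heavy values against the summed level of 10 B cell markers in CPM (counts per 1000000 counts of the tumour), all on log scales, with circles for mice above and squares for mice below median survival. Both chains rise together, both classes span the range, and tumours with marker sums above 1432 form a separate upper band that holds most of the lowest heavy values, with CC001-H2 as a low value outside it.

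The most one-sided usage was in LAX-K2, an animal above median survival, where Ighv1-7 held 94.8% of 37165 heavy counts and Igkv4-59 87.3% of 30290 kappa counts. In other mice Ighv1-7 reached at most 21.8 counts per 1000000 counts of the tumour (CPM), against 1456 in LAX-K2. The 3 tumours of CC044-J3, below median survival, gave Ighv6-6 shares of 93.9%, 93.9% and 92% and Igkv6-15 shares of 75.2%, 79.3% and 74.4%. Their Ighv6-6 levels were 2102, 3755 and 2190 CPM, while no other mouse exceeded 30.4 CPM. This 1 mouse held 38.6% of all counts of the V genes that qualified. A second kappa gene, Igkv19-93, made up 16.9% of the kappa counts of CC044-J3 tumour 2, and its level in tumour 3 was 1674 CPM.

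Both tumours of CC001-H2, above median survival, used the B-1 pair: Ighv12-3 had 82.8% and 76.4% and Igkv4-91 85.6% and 81.6%. In CC044-F4 Ighv1-9 held 66.7%, 68% and 75.1% and Igkv10-96 73.4%, 64.3% and 68.4% of its 3 tumours. CC044-I2 had Ighv1-81 at 81.8% with Igkv3-7 at 74.8%. In CC053-H1 Ighv1-12 (73%) went with Igkv1-110 (86%). The 3 tumours of CC053-F1 had Ighv1-76 at 56.8%, 46.5% and 66.5% with Igkv1-117 at 84.5%, 85.4% and 80.2%, so kappa was led by a single gene while a second heavy gene took a larger part. These 7 mice were led by 7 different heavy genes and 7 different kappa genes.

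The constant regions of the same tumours were also one-sided, although no V count enters them. Ighg3 made up 89.6% of the heavy constant region counts of LAX-K2. Ighg2c made up 87.3%, 91.9% and 88.8% in the tumours of CC044-J3 and 76.4% to 87.3% in those of CC044-F4. Ighm led CC001-H2 with 93.9% and 83.2%, and Igha led CC053-F1 with 95.6% to 96.3% and CC053-H1 with 86.6%. In the 25 tumours where both the top heavy and the top kappa gene exceeded 50%, the leading constant region held a median of 79.8% (34.7% to 96.3%), against 56.6% (30.7% to 95.6%) in the other 88 tumours. Ighg2c led 15 of the 25 and Ighm 4, while Ighm led 55 of the 88 and Igha 20. In 7 of the 15 the leaders were Ighv6-6 and Igkv6-15 at no more than 5% of their highest level in the Pgc library set (described below), with Ighv6-6 at 14.4 to 21.5 CPM and Ighg2c at 34.7% to 48%. Without these 7, Ighg2c led 8 of 18 tumours, all 8 from mice of CC044, and the leading constant region held a median of 87.1%. These tumours were chosen on V shares, which share their cells with the constant regions, so the difference is given without a test.

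**Figure D2:**
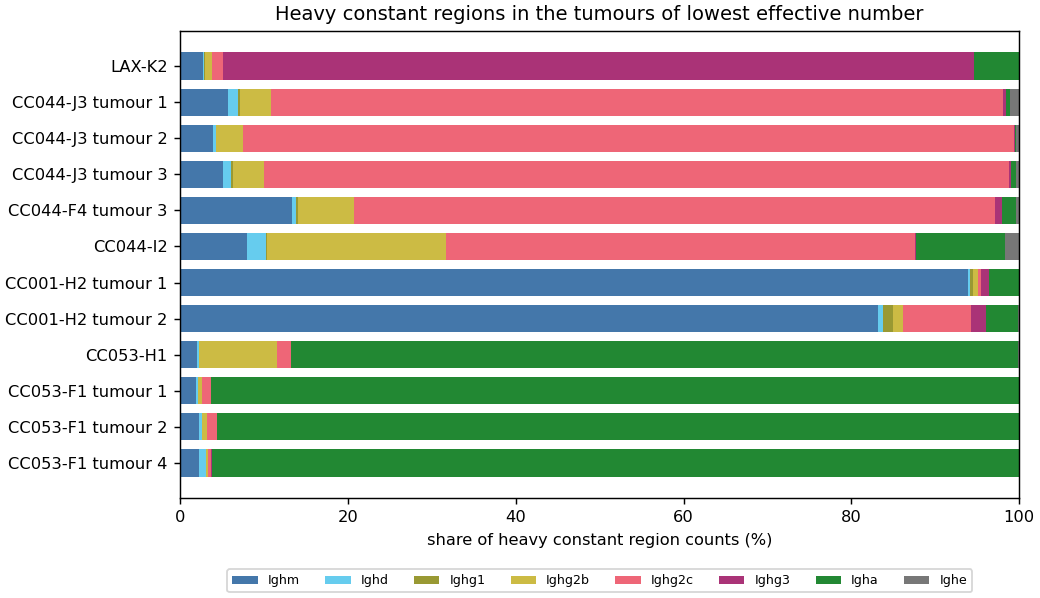
Each bar is 1 tumour among those of lowest heavy or kappa effective number, split into the shares (%) of the 8 heavy constant regions. LAX-K2 is mostly Ighg3, the CC044 animals Ighg2c, CC001-H2 Ighm (93.9% and 83.2%) and the CC053 animals Igha, and tumours of 1 mouse have the same leading region.

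B cell marker genes stood apart in 22 libraries of 13 mice. The sum of 10 markers (among them Ms4a1, Cd79a, Cd79b, Pax5, Cr2, Fcer2a, Blk, Cd22, Fcrla) was 1432 to 3825 CPM in these libraries (median 2465) and 4.78 to 416 CPM in the others (median 27.9), with none between. Of the 22 libraries, 11 came from 5 mice of CC044 and 7 from 4 mice of CC053, while 3 libraries of 2 other CC044 mice and 3 of 3 CC053 mice were low. The remaining 4 were LAX-K2, LOX-E4, YID-E1 and MEE-A3 tumour 1. The 13 mice were 10 above and 3 below median survival, and their libraries lay in all 6 library sets.

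The evenness was low where these markers were high. The heavy effective number of the 22 libraries was 1.11 to 19.8 (median 2.02), against 1.46 to 46.2 (median 16.4) in the other 91 tumours. For kappa it was 1.31 to 30.4 (median 1.82) against 1.36 to 35.6 (median 14.1) in the others. Both top genes exceeded 50% in 14 of the 22 and in 11 of the others, among them CC001-H2, CC001-H3 and MEE-I2. The summed markers in the 25 one-sided tumours had a median of 1499 CPM, against 38.5 CPM in the other 88. CC053-A1 tumour 2 (3458 CPM of markers, kappa effective number 30.4) and YID-E1 (1610 CPM, heavy effective number 19.8) had high markers with even usage. Msln, which encodes the tumour antigen mesothelin, had a median of 4.8 CPM (1.11 to 30.2) in the 22 libraries and 20.1 CPM (0.596 to 1172) in the others. Sdc1 (CD138), a marker of plasma cells and of epithelium, was 9.62 to 87.1 CPM in the 22 and 19.1 to 1673 CPM in the rest, while Jchain, made by antibody-secreting cells, reached 2247 CPM in the 22 and 738 CPM in the rest. The part of cell composition in the evenness was not tested, and each result below is also given without the 22 libraries where that changes it.

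Averaged over mice, Ighv6-6 had the highest heavy share, 10.9% ± 18.6 (SD, n = 82 mice), and the other Ighv genes of highest mean share were Ighv12-3 with 3.88% ± 10.9, Ighv11-2 with 3.59% ± 7.17, Ighv1-81 with 3.27% ± 9.47, Ighv9-3 with 3.11% ± 3.10 and Ighv6-3 with 3.10% ± 5.12. For kappa, Igkv6-15 had 10.2% ± 16.6 (n = 94 mice), Igkv14-126 6.94% ± 10.3, Igkv4-91 5.41% ± 11.2, Igkv1-117 4.72% ± 9.94, Igkv1-110 4.69% ± 9.04 and Igkv19-93 3.89% ± 4.20. The SDs exceed the means except for Ighv9-3. The mean of Ighv6-6 was 35.6% in 22 mice with tumours in the Pgc library set, described below, and 1.83% in 62 mice with tumours outside it, and that of Igkv6-15 was 34.3% in 23 and 2.46% in 73 mice, so the high rank of both genes rests on that set. The median share over mice was 1.66% for Ighv6-6 and 2.63% for Igkv6-15. Ighv12-3 averaged 10.7% in 26 mice with tumours in the Umod library set, also described below, and 2.04% in 58 mice outside it. For Igkv4-91 the means were 13.1% in 30 mice and 3.04% in 66 mice. By family, the 39 Ighv1 genes held 39.7% ± 21.6 of heavy counts and the 17 Igkv4 genes 19.4% ± 16.9 of kappa counts. The gene most often in the lead was Ighv6-6 (23 tumours), then Ighv12-3 (12), Ighv11-2 (7) and Ighv1-76 (7), and for kappa Igkv6-15 (27 of 127), Igkv4-91 (21), Igkv14-126 (17) and Igkv4-55 (11).

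Of 7 V genes listed as used by B-1 cells, 5 qualified, and Ighv7-1 (724 counts) and Igkv7-33 (169 counts) fell below the limit. Ighv11-2 and Igkv14-126 led together in 7 tumours of 7 mice, highest in CIS-G4 with 44.2% and 57.5%, and their levels there were 132 and 429 CPM. Ighv11-1, the closest relative of Ighv11-2, averaged 0.437% and never led. Ighv12-3 and Igkv4-91 led together in 12 tumours of 11 mice, and 11 of these 12 tumours were in 1 library set. The highest levels of this pair were in Piping-I3, with 262 and 669 CPM. Over all usable tumours there were 58 different pairs of a leading heavy and a leading kappa gene, and 47 of them occurred in a single mouse.

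Library sets moved with the V genes that recur across mice. One set of 35 libraries was recognised by Pgc and Chia1, genes of the stomach, at low levels in each of its libraries. For Pgc, KAV-G2 had 19022 CPM, the other 34 libraries 10.8 to 24.2 CPM and libraries outside a median of 0.0482 CPM, with 3 of them at or above the set's lowest level, up to 3382 CPM. Another of 35 was recognised by Svs5, a seminal vesicle protein (142563 CPM in LOX-B4 tumour 3, 101.7 to 258 CPM in the others), and one of 34 by Umod, a kidney protein (2554 CPM in CC081-C5, 3.49 to 15.7 CPM in the others). The remaining libraries were split by title number into 17 with the highest numbers, 34 with other numbers above 36 and 12 with numbers up to 36. Within each set no number was used more than once.

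The same pattern held for V genes. In the Pgc set, which holds the 3 tumours of CC044-J3, the other 32 libraries had 4.93 to 24.97 CPM of Ighv6-6 (median 17, 0.453% of the 3755 CPM in CC044-J3 tumour 2) and 5.32 to 54.4 CPM of Igkv6-15 (median 27.8). Outside the set the medians were 0.329 and 1.05 CPM. The ratio of Igkv6-15 to Ighv6-6 was 1.72 in CC044-J3 tumour 2 and 1.64 (median, 1.03 to 2.84) in the 32 others. In the Umod set, Ighv12-3 was 1.37 to 111.7 CPM (median 2.59, 0.990% of Piping-I3) and Igkv4-91 had a median of 7.10 CPM, in a ratio of 2.67 against 2.56 in Piping-I3. In the smallest set, with CC053-F1, the 9 libraries of other mice had medians of 6.54 CPM of Ighv1-76 and 15.5 CPM of Igkv1-117, against 0.142 and 1.42 CPM outside it. There the ratio of Igkv1-117 to Ighv1-76 differed, with 1.43 in CC053-F1 tumour 4 and 2.57 (2.02 to 3.36) in the 9 others. All 21 tumours (15 mice) led by Ighv6-6 with Igkv6-15 lay in the Pgc set.

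**Figure D3:**
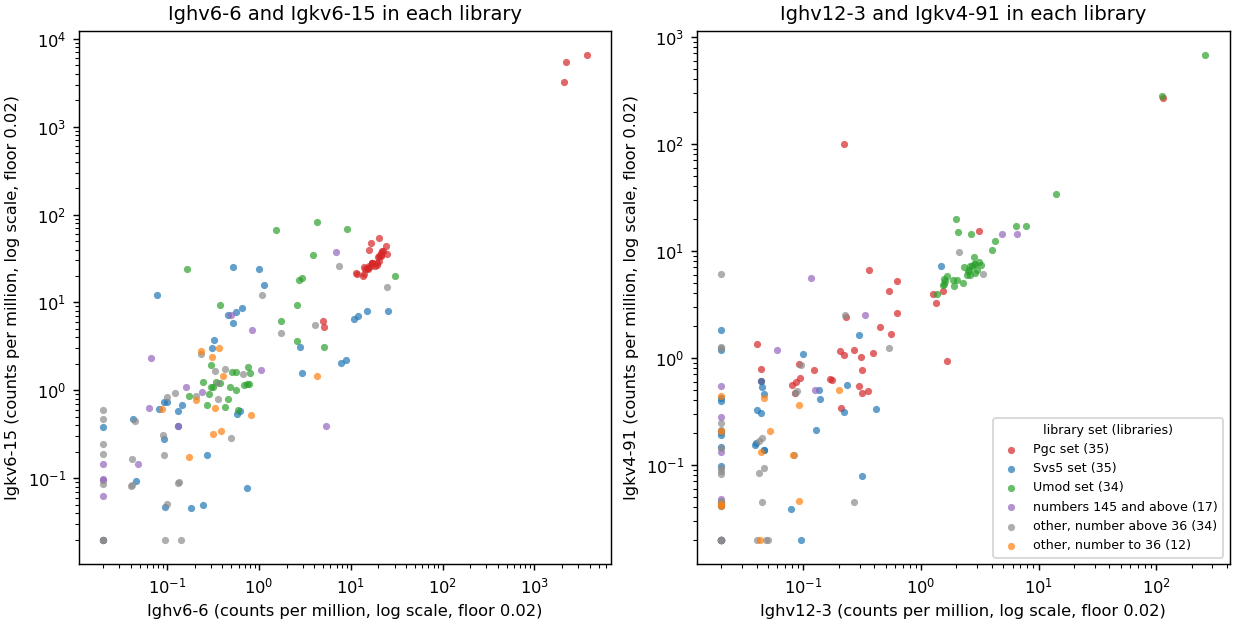
Each point is 1 of 167 libraries, plotted by the level of a heavy V gene (x) and a kappa V gene (y) in CPM on log scales, with 0 drawn at 0.02, and coloured by library set. The Pgc set (red) forms a cluster near 17 and 27.8 CPM below the 3 libraries of CC044-J3, and the Umod set (green) one near 2.59 and 7.10 CPM below Piping-I3.

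A calculation added after seeing the data set to 0 each V gene at or under 5% of its highest level in the library set. Then 74 tumours of 55 mice kept 500 heavy counts and 78 tumours of 59 mice 500 kappa counts, with median effective numbers of 9.20 and 5.81. Ighv6-6 then led 4 tumours in place of 23, Igkv6-15 4 in place of 27, Ighv12-3 3 in place of 12 and Igkv4-91 6 in place of 21. Ighv1-76 led 3 in place of 7 and Igkv4-55 5 in place of 11. Ighv11-2 led the same 7 tumours and Igkv14-126 15 of the same 17. Of the tumours led by Ighv6-6 17, and of those led by Ighv12-3 9, no longer reached 500 heavy counts.

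Tumours of the same animal were compared by the overlap of usage, the sum over genes of the lower of both shares, which is 0% for no shared gene and 100% for equal usage. For the heavy chain, 42 pairs of tumours of 1 mouse (23 mice, 15 strains) overlapped by 71.4% on average. For 183 pairs of tumours of different mice of the same strains the mean was 40.2%. In that second mean each strain was weighted by its number of pairs of 1 mouse. The difference of 31.2 percentage points exceeded all permutations of tumours over mice within strain (one-sided permutation test, p = 1e-05, the smallest that 100000 permutations can give, adjusted p = 5.0e-05). For kappa the overlaps were 73.6% (48 pairs, 24 mice) and 42.3% (206 pairs), a difference of 31.4 points with the same p-values. Pairs of 1 mouse from different library sets overlapped by 78.3% against 26.9% for the heavy chain (6 pairs, 5 mice) and by 75% against 26.9% for kappa (7 pairs, 6 mice), with permutation p = 1e-05 in both. The sets were told apart here by marker genes and title numbers. Whether low levels were also shared across sets was not tested. With low levels set to 0 the overlaps were 73.4% against 15.8% and 76% against 16.6%. This setting removes a gene from mice far below the highest of the set, so it can by itself lower the overlap of different mice.

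**Figure D4:**
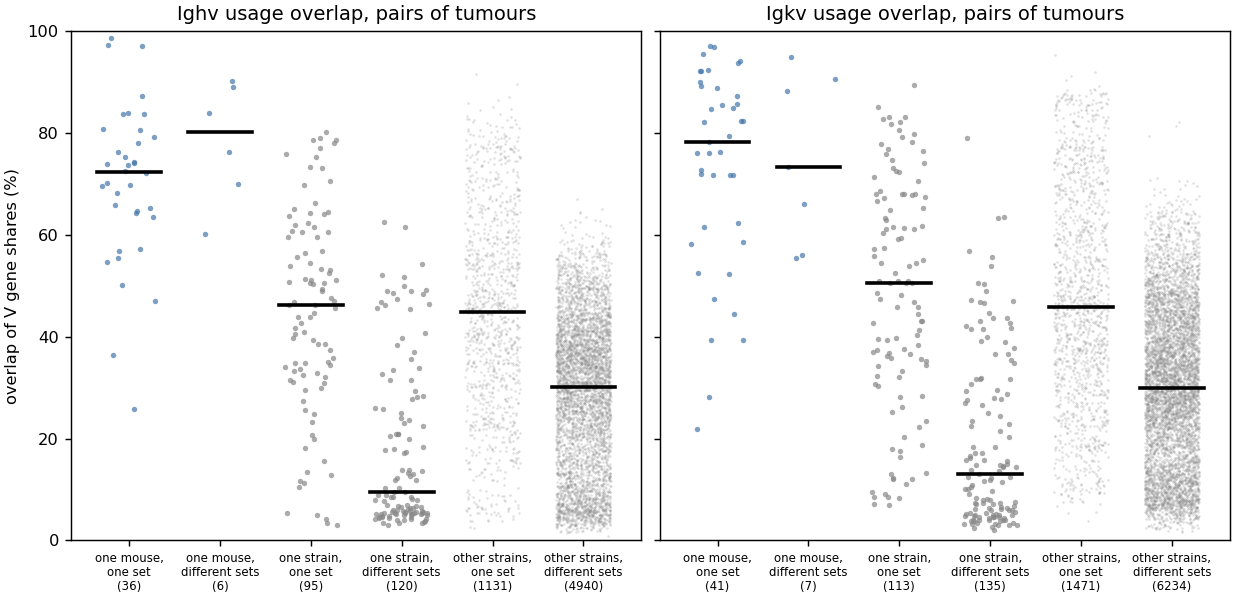
Each point is a pair of tumours, plotted by the overlap of its Ighv (left) or Igkv (right) shares in percent, in 6 columns by whether the pair is of 1 mouse, of different mice of 1 strain or of other strains, and of 1 library set or different sets, with the number of pairs in brackets and a bar at the median. Heavy pairs of 1 mouse have medians of 72.3% (1 set) and 80.2% (different sets), and pairs of different mice of 1 strain 46.3% and 9.47%.

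The mice with high B cell markers contributed much of this. In 13 pairs of 5 mice where both tumours had high markers, the median overlap was 84% for the heavy chain (68.2% to 98.8%) and 92.2% for kappa, and both chains had the same leading gene in all 13. In pairs where neither had them, the median was 70.2% (27 pairs, 16 mice) and 72.8% (33 pairs, 17 mice), with the same leading gene in 14 and 18. Without the 22 libraries the heavy overlap was 68.2% against 56.5%, a difference of 11.7 points (p = 0.0166, 26 pairs, 15 mice), and the kappa overlap was 69.6% against 56.4%, 13.2 points (p = 0.115, 32 pairs, 16 mice), so the kappa difference no longer passed the threshold. Without them and with low levels set to 0, the differences were 33.7 points (63.9% against 30.3%, p = 0.00056, 9 pairs, 7 mice) and 34.6 points (64.1% against 29.5%, p = 0.00094, 10 pairs, 8 mice). Since setting low levels to 0 can itself lower the overlap of different mice, these p-values do not settle whether the kappa difference remains without the 22 libraries. In the Umod set alone, with 4 pairs, the differences were 3.28 (p = 0.359) and 2.09 points (p = 0.422). All p-values in this paragraph are from the one-sided permutation test.

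Of 23 mice with at least 2 tumours usable for both chains (54 tumours), the same Ighv gene led all tumours of a mouse in 10, the same Igkv gene in 12, both in 9, and the same heavy constant region in 16. Leaving aside shared genes that stayed at or under 5% of their highest level in the library set in all tumours of the mouse (CC074-B3, KAV-A3, CC044-D3 and, for kappa, CC058-I4), the counts were 7, 9 and 7. These counts include LAT-F5, whose tumour 2 is 1 of the 5 libraries nearer to another strain and whose shared Ighv1-58 held only 5.63% to 8%. CC044-J3 and CC001-H2 were described above, and the latter's tumours lay in different library sets. CC044-F4 kept Ighv1-9 and Igkv10-96 over 3 tumours in different sets. CC053-G3 kept Ighv2-9-1 (49.7% and 73%) with Igkv4-70 (44.2% and 69.8%) over tumours in different sets. CC044-K1 kept Ighv5-6 (41.1%, 48.1% and 67.5%) with Igkv4-55 (63.5%, 64.8% and 76%) within 1 set.

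Other mice differed between their tumours. In CC053-A1 the overlap was 25.7% for the heavy chain and 28.2% for kappa: Ighv6-6 held 64.9% of tumour 1, which had 518 heavy counts in all and lies in the Pgc set, and 1.27% of tumour 2, which was led by Ighv9-3 (22.2%) with 36853 heavy counts. In MEE-A3 the overlap was 36.3% and 21.9%. Its tumour 1 is 1 of the 5 libraries nearer to another strain, with a correlation of 0.970 to CC044 and -0.290 to its own strain, and its usage overlapped by 91.6% and 95.4% with CC044-K1 tumour 1, also led by Ighv5-6 and Igkv4-55. Without the 5 libraries the difference between pairs of 1 mouse and of different mice was 31.7 points for the heavy chain and 33 points for kappa. In CC074-B3 the share of Ighv6-6 varied from 18.9% to 62.7% over 5 tumours, all in the Pgc set. Their heavy counts ran from 687 to 2270, with the most in tumour 1, where the share was lowest. In all 5 and in both tumours of CC053-A1, Ighv6-6 stayed at or under 5% of its highest level in that set. These changes of share are therefore not changes from a high level of Ighv6-6. In CC059-B1 Ighv1-22 held 21.7% of 1 tumour and 1.08% of the other, and in GIT-K1 Ighv3-2 held 26% of 1 tumour and 0.652% of the other.

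**Figure D5:**
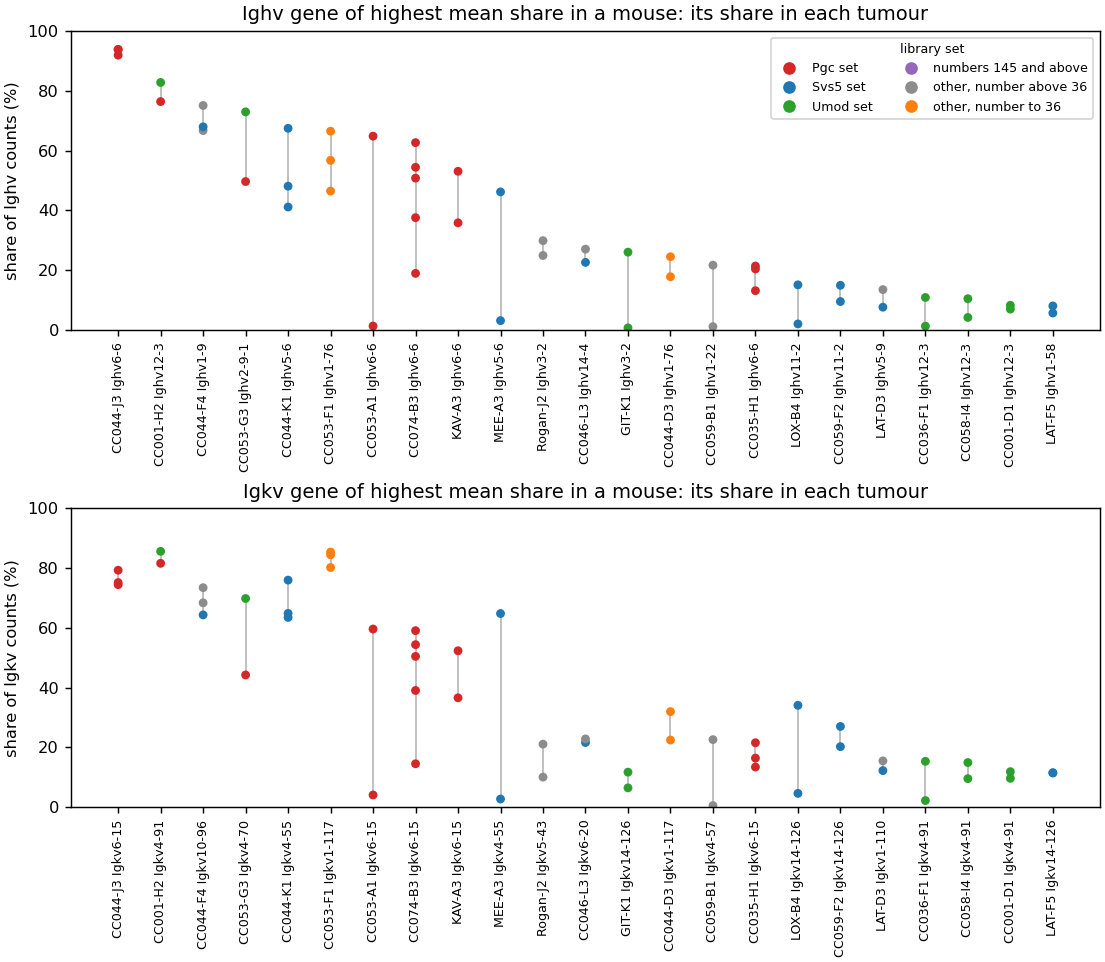
For 23 mice with several usable tumours, each point is the share (%) of that mouse's Ighv gene (top) or Igkv gene (bottom) of highest mean share in 1 tumour, coloured by library set, with a line joining the tumours of the mouse. In CC044-J3, CC001-H2 and CC044-F4 all tumours stay above 64.3%, while CC053-A1 and MEE-A3 fall from 64.9% to 1.27% and from 46.2% to 3.08% for the heavy gene.

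Evenness itself was less clearly shared by tumours of 1 mouse. Their heavy log2 effective numbers differed by 0.78 on average, against 1.23 between mice of the same strain (difference -0.45, one-sided permutation p = 0.0489, adjusted p = 0.105). For kappa the values were 0.72 and 1.01 (difference -0.29, permutation p = 0.126, adjusted p = 0.209).

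Strains differed in evenness. Strain accounted for 47.9% of the variance in heavy log2 effective number over 52 mice of 13 strains with at least 3 mice (permutation p = 0.00511, adjusted p = 0.0153), where permuted labels gave 23.5% on average. For kappa it was 58.4% over 72 mice of 19 strains (permutation p = 5.0e-05, adjusted p = 0.000187), against 25.4%. The lowest median heavy effective numbers were in CC044 (2.61 over 6 mice, 1.15 to 9.72), CC053 (3.52 over 6 mice, 1.84 to 11.5) and CC001 (3.81 over 3 mice, 1.56 to 33.9). The highest among strains with 3 or more mice were in Piping (34.7 over 3 mice, 10.9 to 36.6), CC081 (32.6 over 3 mice, 6.29 to 46.2) and GIT (29 over 4 mice, 17.6 to 35.7), all in the Umod set. Strains were unevenly spread over library sets, and within sets strain accounted for 14.1% (permutation p = 0.702) and 16.6% (permutation p = 0.780), so strain and library set cannot be told apart for evenness. The 22 libraries of high B cell markers came in part from 5 of the 6 CC044 mice and 4 of the 6 CC053 mice above. Without these libraries only CC044-D3 (9.72) remained of the CC044 mice. The shares of variance were then 58.1% (permutation p = 0.00323) and 60.5% (permutation p = 0.00029).

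Overlap of usage was little higher within strains than between them. Mice of 1 strain overlapped by 37.3% for the heavy chain, against 34.6% for mice of different strains (difference 2.74 points, one-sided permutation p = 0.066, adjusted p = 0.124), and by 40.7% against 36.6% for kappa (4.16 points, permutation p = 0.0066, adjusted p = 0.0165). Over pairs of mice from different library sets the differences had the opposite sign, -7.99 and -7.50 points. Without the 22 libraries they rose to 9.86 and 9.99 points (permutation p = 1e-05 for both, the smallest 100000 permutations can give).

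In the fit across all genes, strains differed in all but 5 of the V genes tested, where 69% of all 20687 genes tested passed (edgeR's quasi-likelihood F-test over strains with at least 3 mice, Benjamini-Hochberg adjusted p of 0.05). All 12 constant regions, all 10 B cell markers, all 10 T cell markers and 6 of 10 genes of antibody-secreting cells passed as well. The V genes tested were at most the 81 Ighv and 73 Igkv genes that qualified. With library set as a covariate 140 V genes passed, a larger part than the 33.4% among all genes. With limma-voom only 43 passed, a smaller part of the V genes tested than the 50.4% among all genes. In the Umod set alone 83 passed, again a larger part than among all genes (13.2%). The lowest p-values were for Igkv12-40 (adjusted p = 6.22e-20), Igkv3-7 (1.11e-15), Ighv12-3 (1.4e-15), Ighv1-7 (1.49e-15), Ighv1-76 (9.96e-13), Igkv4-59 (2.66e-12), Ighv4-2 (7.77e-12) and Igkv4-73 (1.15e-11). With the counts of each mouse summed, Ighv12-3 had medians of 14 CPM in CC001 (3 mice, 2.39 to 112.9) and 3.08 CPM in Piping (3 mice, 2.59 to 262). Igkv3-7 had 493 CPM in CC044-I2, 7.01 to 23.3 CPM in the 11 other libraries of its library set and a median of 0.113 CPM outside. Igkv12-40 had 140.7 CPM in Piping-I3 and 0.855 to 4.45 CPM in the 33 other libraries of the Umod set, and at most 1.58 CPM (median 0) outside. All 8 genes had a count in every library of the set that held their highest library, with a higher median there than outside. With library set as a covariate, 7 of the 8 still passed, with edgeR adjusted p from 2.55e-06 for Ighv4-2 to 0.0336 for Ighv1-76, and Igkv4-73 did not (adjusted p = 0.0657). Igkv4-59 did not pass with limma-voom (adjusted p = 0.121) or without the Umod set (edgeR adjusted p = 0.0625). In the Umod set alone Ighv1-76 and Igkv4-73 did not pass (edgeR adjusted p = 0.0575 and 0.0926). No strain fit left out only the mouse with the highest level of any of these genes. Ighv1-7 had a median of 1.32 CPM in LAX, where LAX-K2 had 1456 and the lowest mouse 0.552 CPM. The V genes that did not pass were Igkv8-19, Ighv1-80, Igkv6-32, Ighv1-64 and Ighv14-3. Whether V gene sequences that differ between strains, counted against GRCm38, enter these levels was not tested.

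No difference in evenness between the survival classes passed the test. The median heavy effective number was 13.3 in 59 mice above (1.11 to 46.2) and 16 in 23 mice below median survival (1.15 to 36.6). The kappa medians were 10.9 in 68 mice (1.31 to 31.4) and 15.8 in 26 mice (1.42 to 35.6). On the log2 scale the heavy means were 3.44 ± 1.46 (SD, n = 59) above and 3.44 ± 1.52 (n = 23) below (permutation p = 0.991), and the kappa means were 3.25 ± 1.24 (n = 68) and 3.24 ± 1.5 (n = 26) (permutation p = 0.961). Compared within strains, the differences of mice below minus above were 0.14 (9 strains, permutation p = 0.764) and 0.10 (10 strains, permutation p = 0.778). Pairs of mice of 1 class overlapped in usage by 34.5% and pairs of different classes by 34.8% for the heavy chain (permutation p = 0.845), and by 36.6% in both kinds of pair for kappa (permutation p = 0.988). All these tests were two-sided.

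Single V genes did pass between the classes, but each call was lost without 1 animal. In the fit across all genes on the summed counts of 119 mice, 24 V genes passed and 84 did not, 4 being higher and 20 lower in mice below median survival, where 1.56% of all 17091 genes passed, 0.983% higher and 0.579% lower (edgeR's quasi-likelihood F-test, Benjamini-Hochberg adjusted p of 0.05). The median log2 fold change was -1.34 over the tested V genes and -0.02 over all genes. For all 24, the mouse with the highest level belonged to the class with the higher fitted mean. Leaving out that mouse ended the call in all 24, over 10 different mice, with 17 to 26 V genes called in these fits. The 4 higher genes then had negative fold changes, while the 20 lower genes stayed negative, between -1.78 and -0.14. The class medians went in the fitted direction for 19 of the 24 and for none of the 4 that were higher. With limma-voom 0 V genes and 0 of all genes passed, with 1 V gene at an unadjusted p under 0.05, and DESeq2 called 12 V genes, all lower, 7 of them among the 24, where it called 1.67% of all genes and 0.819% as lower. Without a filter on low counts 43 V genes passed, where 3.43% of all genes did. Without the Umod set it was 14 V genes against 3.05% of all genes, in that set alone 0 against 0.189% (43 V genes at an unadjusted p under 0.05), and without the 17 libraries of highest title number 13 against 1.37%.

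The 4 higher genes were Ighv6-6, Igkv6-15, Ighv1-76 and Igkv19-93. As a mean over the tumours of each mouse, the level of Ighv6-6 had a median of 0.5682 CPM above (0 to 24.97) and 0.477 CPM below median survival (0 to 2683, highest in CC044-J3), and its log2 fold change was 4.05 (SE 0.62, edgeR adjusted p = 1.25e-06). Without CC044-J3 it was -0.70 (adjusted p = 0.695). Igkv6-15 had medians of 1.84 and 1.22 CPM and 5023 CPM in CC044-J3, with a log2 fold change of 3.76 (SE 0.60, adjusted p = 4.15e-06), and -1.12 without that mouse. Igkv19-93 had 1309 CPM in the same mouse, a log2 fold change of 2.66 and -1.41 without it. Ighv1-76 had medians of 0.212 and 0.180 CPM, 348 CPM in CC053-F1, a log2 fold change of 2.97 and -0.74 without that mouse. The levels of the classes overlapped throughout, and each of the 4 genes was highest in 1 of these 2 mice.

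Among the 20 lower genes, Ighv1-7 (log2 fold change -4.45, SE 0.91, edgeR adjusted p = 0.000848) and Igkv4-59 (-3.33, SE 0.71, adjusted p = 0.00157) had 1456 and 1093 CPM in LAX-K2, and nowhere below median survival more than 7.97 and 9.03 CPM. Their medians were 0.384 and 0.819 CPM above and 0.363 and 0.584 CPM below. Without LAX-K2 the log2 fold changes were -0.90 and -1.09 (adjusted p = 0.673 and 0.348). Ighv1-9 (-2.74) and Igkv10-96 (-2.40) were highest in CC044-F4, with 326 and 580 CPM, and had -1.21 (SE 0.42) and -1.53 (SE 0.48) without it. Igkv4-70 (-3.60) had 1139 CPM in CC053-G3 and -0.51 without it. Ighv9-1 (-3.12) had 178 CPM in CC053-A1 and -1.66 (SE 0.57) without it. Igkv8-21 (-2.87) had 336 CPM in CC017-I4 and -1.09 (SE 0.47) without it, and Ighv1-58 (-2.14) 31.7 CPM in CC059-F2 and -1.56 (SE 0.48) without it. None of these remaining differences passed.

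Few other genes of the antibody system passed between the classes. Igkc had a log2 fold change of -0.03 (edgeR adjusted p = 0.994), with medians of 168 CPM above and 144 CPM below. Ighm had -0.56 (adjusted p = 0.800), Jchain -0.01 (adjusted p = 0.997) and the B cell marker Ms4a1 -0.14 (adjusted p = 0.983). By list, the median log2 fold change was -0.68 for constant regions, -1.10 for lambda V genes, -0.28 for B cells, -0.71 for T cells and 0.05 for antibody-secreting cells, beside -1.34 for the V genes. Within strains it was -1.16 for the V genes, -1.36 for constant regions, -1.21 for B cells and -1.07 for T cells. The part of lymphocyte content in the V gene differences was not tested. Of 12 constant regions only Ighg3 passed, lower below median survival, and none of 10 B cell markers, 9 genes of antibody-secreting cells, 6 of germinal centres, 10 of T cells, 3 lambda V genes or 4 recombination and switch enzymes did. Without the 22 libraries of high B cell markers, 3 of 92 V genes passed (Igkv8-21, Ighv8-8 and Ighv14-2, all highest in CC017-I4), where 1.35% of all genes did. With library set as a covariate, 1 V gene passed, where 0.723% of all genes did. Within strains, with strain as a covariate, 0 of 99 V genes and 0% of all genes passed by edgeR, with an unadjusted p under 0.05 for 25 V genes, limma-voom also called 0, and DESeq2 called 3 against 0.394% of all genes, among them Igkv10-96 and Ighv1-78.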

How the data were processed

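Whole tumours were homogenised and strand-specific mRNA libraries made from total RNA, per the labels' protocols. The authors' deposited raw table gives estimated counts per gene and tumour, as whole numbers with no normalization, for 36118 Ensembl genes, 35825 of them with a symbol here. Per the submitters' processing notes, kallisto 0.46.1, GRCm38, DESeq2 and DESeq were used, and kallisto assigns reads to transcripts without full alignment. Its settings and annotation were not stated in any source used here. For mouse GIT-K1 the titles fix class, strain and animal of its 2 columns but not which tumour each is. The genes described and all gene lists were chosen with earlier results of these data known.

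Shares are counts of a gene over the counts of its chain's member genes in a tumour with at least 500 of them. CPM are counts per 1000000 of the tumour's total. The unbiased inverse Simpson number was taken on a log2 scale and averaged over the tumours of a mouse, since the mouse was the replicate. Tests used 100000 permutations (SciPy 1.17.1, numpy 2.4.6, Python 3.11.15) and Benjamini-Hochberg adjustment over 15 tests. Where nothing says how tumours of a mouse were sampled, p-values of tests on mice measure the spread between these mice. Tests of tumours of 1 mouse instead permuted single tumours over mice within strain, and a mouse with more tumours gave more pairs. In those tests the mean over different mice weighted each strain by its number of pairs of 1 mouse. Per-gene tests used edgeR 4.0.16 (quasi-likelihood F-test, TMM, filterByExpr, R 4.3.3) on counts summed per mouse, and limma 3.58.1 and DESeq2 1.42.0 as alternatives. On simulated counts, edgeR recovered 96% of 200 genes changed by a log2 of 2 between classes, 85% within strain and 45% between strains.

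Genes named are, per chain, the 6 of highest mean share, the 4 most often in the lead, the 12 of lowest p between classes, the 4 of lowest p between strains, the leaders of the 8 tumours of lowest effective number and the B-1 list. Genes of pairs and mice described beyond these were chosen after their values were seen. The library sets, the setting of low levels to 0, the fits without single mice and those without high B cell markers were also chosen after seeing the data. Of the 10 B cell markers summed, 1 is not reported here by itself.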

Additional observations from a re-analysis of the deposited data

Results flagged for a closer look

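Groups of 4 to 10 mice of 1 strain, or of tumours of 1 mouse, were tested per chain for a single outlying value. Of 15 groups 1 held such a value, and chance gives about 1 in 20 groups. The heavy effective number of LOX-E4 was 1.98, while the 4 other mice of its strain with enough heavy counts, all above median survival, had 15.5 to 28.6, and the gap to the nearest was 0.771 of the group's range. In LOX-E4 Ighv4-1 held 62.8% of heavy and Igkv6-17 60.6% of kappa counts, Ighg3 made up 79.8% of the heavy constant regions, and the 10 B cell markers summed to 2517 CPM.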

How the results depend on the processing

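For the 24 V genes called between the classes, limma-voom gave 0 and DESeq2 12, no filter on low counts 43, leaving out the Umod set 14, that set alone 0, leaving out the 17 libraries of highest number 13, library set as a covariate 1 and leaving out high B cell markers 3. Leaving out the highest mouse of a called gene in turn gave 17 to 26. Within strain DESeq2 gave 3 in place of 0. Between strains, in place of all tested V genes but 5, limma-voom gave 43 and the Umod set alone 83, and the other 8 alternatives stayed within 1.5 times.

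The overlap of tumours of 1 mouse kept its direction in all 15 alternatives for each chain and passed except in the Umod set alone (3.28 and 2.09 points) and, for kappa, without high B cell markers (13.2 points). Leaving out each strain in turn, it was 17.6 to 41.6 points for the heavy chain and 17.9 to 43.2 points for kappa, and passed each time. The correlation of heavy and kappa evenness passed in all 15 alternatives.

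Strain's share of the heavy evenness variance (47.9%) no longer passed at a count minimum of 2000 (34.8%), in the Umod set alone (22.6%), for the share of the most used gene (37.6%) and within library sets (14.1%), and the kappa share (58.4%) not in the Umod set alone (31.8%) and within sets (16.6%).

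The overlap of mice of 1 strain depended on the setting. The heavy difference of 2.74 points passed at a count minimum of 100 (4.04), for V families (5.69), with the Morisita-Horn index (9.30), without high B cell markers (9.86) and also with low levels set to 0 (7.97). It turned to -5.23 at a minimum of 2000, -1.78 in the Umod set alone, -0.106 with low levels set to 0, -7.99 over pairs of different sets, -2.27 over those with low levels set to 0 and -0.133 with low levels set to 0 without libraries nearer to another strain. The kappa difference of 4.16 points no longer passed for V families (1.15), without the Umod set (2.49), in it alone (0.952), with low levels set to 0 (1.28) and that without libraries nearer to another strain (0.597). It turned to -2.21 at a minimum of 2000, -7.50 over pairs of different sets and -0.335 over those with low levels set to 0. Without CC017, CC021, CC044 or CC053 the heavy difference passed, and over all strains left out it was 1.77 to 4.52.

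The heavy difference in evenness of tumours of 1 mouse (-0.45) no longer passed at a minimum of 100 (-0.398), without the Umod set (-0.352), in it alone (-0.768), without high B cell markers (-0.208) and that with low levels set to 0 (-0.389). The kappa difference (-0.29) passed at a minimum of 2000 (-0.461), with the Shannon number (-0.373), with low levels set to 0 (-0.357), that without libraries nearer to another strain (-0.411) and over pairs of different sets (-0.943). Leaving out strains gave -0.756 to -0.234, losing the heavy call for 10 of 35 strains, and -0.527 to -0.185 for kappa, which passed without CC074.

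Between classes no alternative passed, and small differences changed sign. The heavy difference in evenness (-0.00395) was 0.0228 at a minimum of 100, 0.795 in the Umod set alone, 0.0146 without the highest library numbers, 0.0148 with the Shannon number, 0.000394 with low levels set to 0 and 0.0254 without high B cell markers. The kappa difference (-0.0145) was 0.00286 thinned to 500 counts, 0.779 in the Umod set alone, 0.197 with low levels set to 0, 0.174 with that and without libraries nearer to another strain, 0.0690 without high B cell markers, 0.320 with both and 0.0335 within library sets. Within strain the heavy difference was -0.244 without the Umod set and -0.409 with low levels set to 0 and without high B cell markers. The kappa one was -0.0221 at a minimum of 100, -0.256 without the Umod set and, for the share of the most used gene, 1.46. The overlap difference of classes turned to 2.16 at a minimum of 2000 for the heavy chain. For kappa (0.027) it was -0.395 at a minimum of 100, -0.0176 for V families, -0.00375 without libraries nearer to another strain, -0.186 without the Umod set, -4.84 in it alone, -0.332 with the Morisita-Horn index, -0.124 with counts summed, -0.872 with low levels set to 0, -0.724 over pairs of different sets, -0.840 without libraries nearer to another strain, -0.0230 without high B cell markers and -1.04 with both. With strains left out in turn these class differences were -0.167 to 0.130, -0.00662 to 0.347, -0.859 to 0.255, -0.142 to 0.108, -0.0309 to 0.256 and -0.464 to 0.673.

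The causes of these changes were not tested. Some alternatives kept too few mice for a value. No paired analysis was possible because replicate numbers only follow the order of the samples; strains holding both classes were compared within strain instead. A count minimum of 500 limits evenness to tumours with enough antibody RNA.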
